A study of Mus musculus with 12 samples.

Results

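Myoblasts lacking the lamin B receptor were set directly against myoblasts lacking lamins A and C, so that each knockout served as the reference of the other. Every gene of the deposited expression table entered that had a mean of at least 1 FPKM over the 4 myoblast columns and a value above 0 in both knockout columns, which gave 11466 genes of 22552. FPKM counts fragments relative to transcript length and to the fragments mapped in the library. The groups were Lbr-knockout myoblasts (2 libraries, given as a single column), Lmna-knockout myoblasts (2 libraries, a single column), a wild type from the Lbr litter (1 library) and a wild type from the Lmna litter (1 library). All came from C57Bl/6 mice bred from heterozygous parents, with the knockouts homozygous, and all 6 myoblast libraries, of 12 in the series, were made with 1 kit. The labels give no age, sex, culture time or deleted exon, and they do not say whether a knockout column is a mean or a joint estimate of its 2 animals.

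The nuclear lamina is a protein mesh under the inner nuclear membrane. Lbr encodes an inner membrane protein that binds B-type lamins and heterochromatin and also carries a sterol reductase domain, whereas Lmna encodes the lamins A and C, and both proteins are known as tethers that hold heterochromatin at the nuclear edge. Mutations of LMNA cause muscular dystrophy, and the myoblast is the dividing precursor that, on leaving the cell cycle, switches on myogenin, fuses with its neighbours and builds sarcomeres. A direct comparison of these myoblasts asks which genes distinguish the loss of either tether.

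A single column per knockout leaves no replicate error and no test of the difference. A gene is therefore called 2-fold apart when log2(FPKM + 1) differed by at least 1, a scale that understates differences of low genes, and the same rule was applied to the wild types, whose difference is the only spread between libraries that these data hold. Signed differences below are Lbr minus Lmna on that log2 scale, and the wild-type difference is Lbr litter minus Lmna litter. Between 11315 and 11650 genes reached 1 FPKM in each column, so breadth was alike at that level. It was less alike among low genes: 4137 genes were listed at 0 in the Lbr knockout and 5754 in the Lmna knockout. The wild types of the Lbr and Lmna litters listed 5609 and 6020 genes at 0. The part of this gap in the differences of low genes was not tested. Total counts are unknown, and the spacing of low values gave estimates of 23.5 to 32.4 fragments per FPKM of a 2 kb transcript, with the wild types at the upper end. The labelled cell type had uneven support from its markers: Pax7 and Myf5, markers of muscle stem cells and myoblasts, lay between 0.152 and 0.441 FPKM in all 4 columns. Myod1, the myogenic master regulator, lay between 2.09 and 5.51 FPKM and Des, desmin, between 18.7 and 85.2 FPKM. Fibroblast and smooth muscle markers were abundant in each column, and the fibroblast collagen gene Col1a1 lay between 1027 and 1151 FPKM.

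The targeted genes came first. Lmna stood at 106 FPKM in the Lbr knockout and 18.5 in the Lmna knockout, against 114 and 147 in the wild types of the Lbr and Lmna litters, a difference of 2.45 that was 2-fold. Lbr stood at 7.71 FPKM in the Lbr knockout and 13.5 in the Lmna knockout, against 16.1 and 14.7 in the wild types, and its difference of -0.73 fell short of 2-fold. The Lbr-knockout column thus held the lowest Lbr value but not a near absence of the transcript, and which exons the remaining signal covers cannot be read from gene-level values. Lmnb1 and Lmnb2, which encode the B-type lamins, differed by -0.08 and -0.03, with a sign that turned to 0.10 and 0.14 under upper quartile scaling. Emd, which encodes emerin, a membrane partner of lamin A, was at 53.4 FPKM against 87.4 (difference -0.70), next to a wild-type difference of -0.53. Of 20 lamina and inner nuclear membrane genes, Lmna alone was 2-fold apart, beside 3.34% of all genes. The median of the list was -0.06 beside -0.04 over all genes (0.09 after upper quartile scaling and also with the wild-type difference subtracted).

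Across the genome the knockouts differed little more than the wild types did. The pairs were not matched in libraries, with 2 for each knockout column and 1 for each wild type. In the knockouts 232 genes were 2-fold higher in the Lbr knockout (2.02% of the genes tested) and 151 were 2-fold higher in the Lmna knockout (1.32%), together 3.34%. Counts of called genes in each list below are to be read beside these shares. Of the 383 genes, 60.6% were thus higher in the Lbr knockout. Among the genes called under other settings that share was 51.5% with a pseudocount of 5, 52.1% with a mean of at least 5 FPKM, 53.7% at 1.5-fold and 78.6% at 3-fold. It was 82.7% after upper quartile scaling, 72.3% after centring within bins of transcript length and 87.3% after the wild-type difference was subtracted. In the wild types 79 genes were 2-fold higher in the Lbr litter (0.687%) and 233 in the Lmna litter (2.03%), together 2.71% of 11504 genes. The SD of the differences over genes was 0.47 in the knockouts and 0.43 in the wild types. The call threshold parted neighbours of almost the same value, such as Ranbp2 just inside it and Rock1 just outside it, both at 1.00 after rounding.

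Which genes lay apart was less alike than how many. Over 11447 genes compared in both pairs, the knockout and wild-type differences, which share litters but no library, correlated across genes with Pearson's r 0.52 and Spearman's rho 0.65 (genes are not independent replicates). In the 49 contractile genes the same correlation was -0.33 (rho -0.41). Both pairs called 77 genes in the same direction and 13 in opposite directions.

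**Figure D1:**
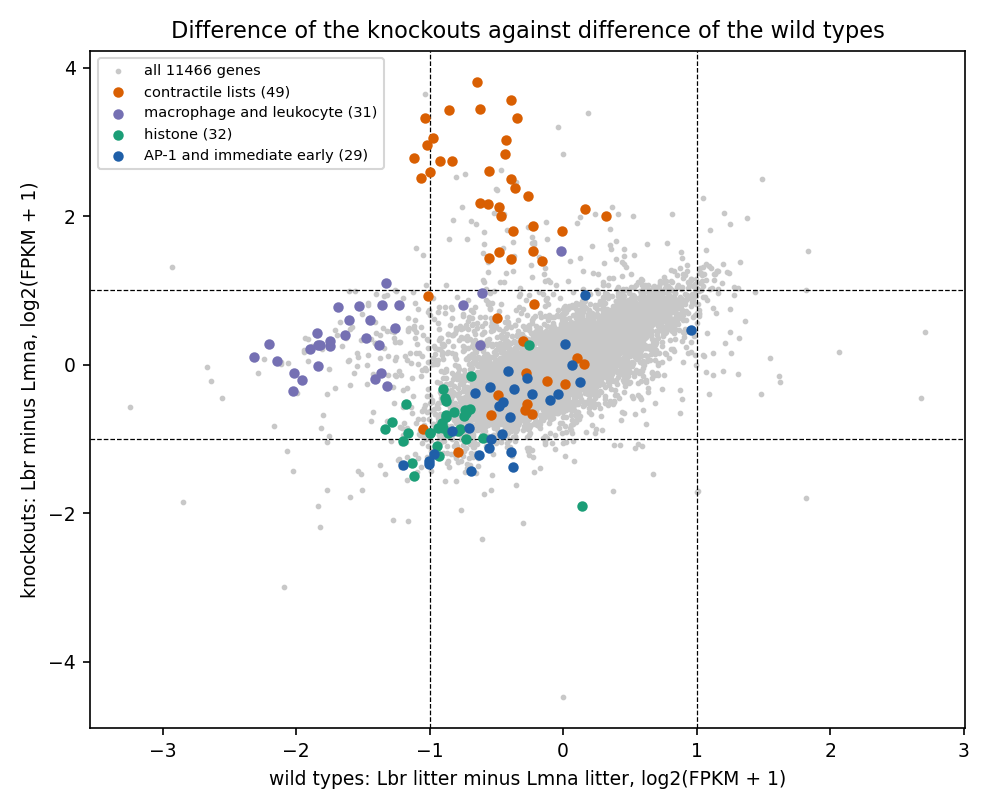
Difference between the knockouts (vertical axis) against difference between the wild types (horizontal axis), both Lbr minus Lmna on the log2(FPKM + 1) scale, with 1 point per gene and dashed lines at the 2-fold calls. Contractile genes lie high at the top while the wild types differ slightly the other way, macrophage genes lie far to the left at knockout differences around 0, and histone and early-response genes lie low on both axes.

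Contractile genes held the largest differences of the genes higher in the Lbr knockout. Of 80 genes of the thick filament, the thin filament and the Z-disc in the table, 49 could be compared, and 33 of them were 2-fold higher in the Lbr knockout against 1 in the Lmna knockout (median 2.0, interquartile range 0.32 to 2.74). Over all genes 2.02% were called in that direction and the median was -0.04. Of the 33, Xirp2, Ttn and Nrap passed the mean filter only through the Lbr-knockout column, so the filter favoured calls in that direction. The wild types differed the other way for these 49 genes, with a median of -0.44, 0 genes 2-fold higher in the Lbr litter and 6 in the Lmna litter. The Lbr knockout lay above both wild types in 38 of the 49, and the Lmna knockout lay below both in 37. Over all 11466 genes these positions were held by 3664 and 2896. The list medians against the wild type of the same litter were 1.12 for the Lbr knockout and -1.05 for the Lmna knockout. In bulk RNA, fewer cells of a kind and less RNA per cell cannot be told apart.

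The thick filament is built of myosin heavy and light chains. Myl1, a fast skeletal light chain, stood at 61.3 FPKM in the Lbr knockout and 3.43 in the Lmna knockout, with 20.1 in the Lbr-litter and 32.0 in the Lmna-litter wild type (difference 3.81). Mylpf, the fast regulatory light chain, stood at 196 and 18.7 FPKM with wild types at 57.5 and 119 (3.32). Myl4, the embryonic light chain, followed at 74.4 and 8.10 FPKM with wild types at 23.3 and 46.7 (3.05). In each of the 3 genes the order was the same: Lbr knockout, Lmna-litter wild type, Lbr-litter wild type, Lmna knockout.

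Among the heavy chains, Myh3, the embryonic form, was at 25.6 FPKM in the Lbr knockout and 1.25 in the Lmna knockout (wild types 7.67 and 10.4, difference 3.57). Myh8, the perinatal form, was at 13.4 and 0.433 FPKM (wild types 3.67 and 4.94, difference 3.33). The adult fast form Myh1 was at 12.0 and 0.598 FPKM (wild types 4.54 and 6.47, difference 3.02). Embryonic, perinatal and adult forms therefore ordered the 4 columns alike. Of 9 thick filament genes compared, 8 were 2-fold higher in the Lbr knockout and 0 in the Lmna knockout (median 3.05, wild types -0.49). Myom1, the M-band protein myomesin, was the exception at 3.52 against 5.0 FPKM (-0.41). Mybph, a myosin-binding protein, was at 9.08 and 0.503 FPKM with wild types at 4.43 and 9.31 (difference 2.75), so that there the Lmna-litter wild type lay slightly above the Lbr knockout. A further 14 members had a mean below 1 FPKM, and 12 of these were higher in the Lbr knockout. Among all genes not compared, 5076 of the 7477 with a value above 0 in a knockout column were higher there. In 8 of the 9 genes compared the Lmna knockout lay at least 2-fold below both wild types. In 2 of the 9, Myh3 and Myh8, the Lbr knockout lay at least 2-fold above both. Over all 11466 genes these positions were held by 34 and 60.

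The thin filament carries actin and the troponin complex that answers to calcium. Of 15 genes compared, 11 were 2-fold higher in the Lbr knockout and 0 in the Lmna knockout (median 2.50, wild types -0.54). Tnnt1, the slow troponin T, was at 39.5 FPKM in the Lbr knockout and 2.73 in the Lmna knockout (wild types 13.2 and 21.0, difference 3.44). Tnnc2, the fast troponin C, was at 23.9 and 1.30 FPKM (wild types 6.75 and 13, difference 3.43). Slow and fast troponins were alike in this, since Tnni1, the slow troponin I, was at 67.4 and 7.77 FPKM (wild types 22.0 and 45.7) and Tnni2, its fast counterpart, at 10.2 and 0.560 FPKM (wild types 3.42 and 4.98). Tnnt2, the cardiac troponin T that developing skeletal muscle also makes, was at 70.9 and 10.7 FPKM (wild types 22.5 and 33.6, difference 2.61), and it lay 2-fold outside both wild types in either knockout. Actc1, cardiac actin, was at 147 and 24.9 FPKM (wild types 36.7 and 78.0, difference 2.51). Acta1, the adult skeletal actin, was less far apart at 62.5 and 32.5 FPKM (wild types 25.5 and 52.6, difference 0.92), short of 2-fold.

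A pair of thin filament genes could not be compared because a column lists them at 0, which can be a failed estimate. Tpm1, a tropomyosin, was listed at 0 in both knockout columns while the wild types held 1960 and 2905 FPKM. Tnnt3, the fast troponin T, was at 46.0 FPKM in the Lbr knockout and listed at 0 in the Lmna knockout (wild types 13.2 and 20.8). In all, 58 genes passing the mean were listed at 0 in a knockout column, 39 of them in both, and all 39 were above 0 in both wild types, Gnas among them at 899 and 871 FPKM. Lists that are partly missing for this reason are described by their remaining members.

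At the Z-disc, where thin filaments are anchored, 14 of 25 genes were 2-fold higher in the Lbr knockout and 1 in the Lmna knockout (median 1.43, wild types -0.30). Smpx, a small muscle protein, was at 7.6 and 0.245 FPKM (wild types 1.52 and 4.47, difference 2.79). Csrp3, the muscle LIM protein, was at 6.52 and 0.126 FPKM (wild types 2.68 and 5.57, difference 2.74). Des, which encodes the intermediate filament desmin, was at 85.2 and 18.7 FPKM (wild types 23.3 and 32.9, difference 2.13), and here the Lbr knockout lay more than 2-fold above both wild types. The Z-disc list was the least uniform of the 3, and with a mean of at least 5 FPKM required its median was 0.00. The single gene in the other direction was Fhl1, a LIM protein that many cell types express.

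**Figure D2:**
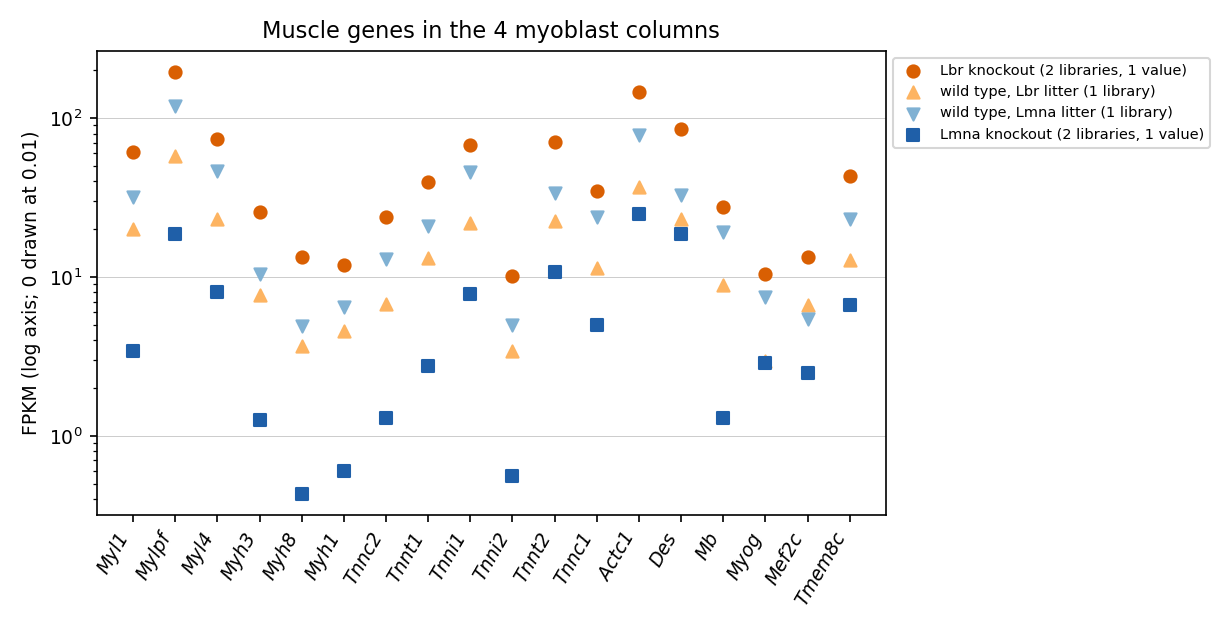
FPKM (log axis) of 18 muscle genes in the 4 myoblast columns, with 1 symbol per column and no error bars because each knockout is a single value. In every gene shown the Lbr knockout is the highest symbol and the Lmna knockout the lowest, with Myl1 at 61.3 against 3.43 FPKM.

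Regulators of muscle differentiation were apart in the same direction, though by less. Of 18 compared, 8 were 2-fold higher in the Lbr knockout and 0 in the Lmna knockout (median 0.82, wild types -0.33). With a mean of at least 5 FPKM required, the median of the 10 regulators left was 0.23. Myog, myogenin, which drives terminal differentiation, was at 10.5 FPKM in the Lbr knockout and 2.89 in the Lmna knockout (wild types 2.94 and 7.47, difference 1.56). The Lmna-knockout value was therefore close to that of the Lbr-litter wild type, and the wild types themselves differed by -1.10. Mef2c, a partner of the myogenic factors, was at 13.3 and 2.50 FPKM with the wild types close together at 6.62 and 5.45 (difference 2.03). Smyd1, a methyltransferase needed for sarcomere assembly, was at 7.13 and 0.598 FPKM (wild types 2.43 and 3.82, difference 2.35). Lmod3, which nucleates thin filaments and is also in the thin filament list, was at 5.25 and 0.197 FPKM (wild types 1.51 and 2.22, difference 2.38). Myod1 was at 5.51 and 2.09 FPKM (1.07), but the wild types spanned nearly the same range at 2.46 and 5.35. Among 15 muscle progenitor genes the median was 0.11, and the 2 genes called, Des and Myod1, also stand in lists above.

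Genes of excitation and fusion followed. Calcium handling genes were 2-fold higher in the Lbr knockout in 7 of 16 (median 0.77, wild types -0.34), with 1 in the other direction, Jph2, a junction protein at 10.5 against 22.1 FPKM. Of the 7, Sln and Hrc passed the mean filter only through the Lbr-knockout column. With a mean of at least 5 FPKM required, the median of the 8 genes left was -0.09. Casq2, which stores calcium in the sarcoplasmic reticulum, was at 10.8 FPKM in the Lbr knockout and 0.918 in the Lmna knockout (wild types 3.92 and 5.78, difference 2.63). Atp2a1, the fast calcium pump, was at 7.19 and 0.588 FPKM (wild types 2.14 and 3.46, difference 2.37). Of 9 acetylcholine receptor and synapse genes 3 were called, the receptor subunits Chrnd, Chrna1 and Chrng, at 5.50 against 0.499, 14.1 against 2.67 and 3.47 against 0.389 FPKM. The synaptic genes Agrn, Lrp4 and Utrn differed by -0.32, 0.25 and 0.22.

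Of 19 genes of fusion and membrane repair, 3 were 2-fold higher in the Lbr knockout, and they included both fusogens. Tmem8c, also known as myomaker, was at 43.0 and 6.65 FPKM (wild types 12.8 and 23.1, difference 2.52). Gm7325, known as myomixer, was at 6.67 and 0.290 FPKM (wild types 1.37 and 2.93, difference 2.57). The third was Cav3, the muscle caveolin, at 4.35 against 0.381 FPKM. The other genes compared in that list, among them annexins that many cell types express, fell short of 2-fold, from -0.59 (Cd81) to 0.71 (Elmo1). The list's median was 0.21, or -0.12 over the 14 genes whose mean was 5 FPKM or more. Muscle metabolism was split in the same way: Mb, myoglobin, was at 27.5 and 1.29 FPKM (wild types 8.89 and 19.2, difference 3.64), while the median of 19 energy genes was -0.13, a sign that turned positive under quantile normalization (0.07), upper quartile scaling (0.05), centring within length bins (0.03) and subtraction of the wild-type difference (0.18). Genes of the dystrophin complex, which links the cytoskeleton to the matrix, were apart in 2 of 17, Cav3 and Sntb1 (median 0.03, or -0.05 with the wild-type difference subtracted).

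To show the sequence in front of genes that stood apart together, promoters of GRCm38.p6 from RefSeq were matched by symbol and the 250 bases before the start were searched for CAGCTG, an E-box that myogenic factors can bind, and for CTANNNNTAG, the core of a Mef2 site. Either motif reads the same on both strands, and the motifs cannot overlap each other. Of 49 contractile genes compared, 42 had a promoter, and 15 of these held CAGCTG (35.7%), against 14.1% of 8131 compared genes with a promoter and 14.7% of all 27025. CTANNNNTAG was held by 9 of the 42 (21.4%), against 3.16% of compared genes and 3.70% of all. Among genes 2-fold higher in the Lbr knockout 23.9% of 159 held CAGCTG, and among those higher in the Lmna knockout 20.5% of 88. For CTANNNNTAG these shares were 5.03% and 1.14%. A match is a description of these letters only. The following 4 upstream sequences belong to called genes of the light chain, thin filament, Z-disc and receptor lists, were chosen after the match was known, and have each CAGCTG in capitals.
Mylpf, chr7:127211358-127211607, plus strand: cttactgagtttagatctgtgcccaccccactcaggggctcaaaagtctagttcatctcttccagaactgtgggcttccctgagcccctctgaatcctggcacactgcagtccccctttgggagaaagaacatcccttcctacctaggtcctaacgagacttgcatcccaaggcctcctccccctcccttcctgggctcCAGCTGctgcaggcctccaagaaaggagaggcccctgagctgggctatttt
Tnni1, chr1:135799171-135799420, plus strand: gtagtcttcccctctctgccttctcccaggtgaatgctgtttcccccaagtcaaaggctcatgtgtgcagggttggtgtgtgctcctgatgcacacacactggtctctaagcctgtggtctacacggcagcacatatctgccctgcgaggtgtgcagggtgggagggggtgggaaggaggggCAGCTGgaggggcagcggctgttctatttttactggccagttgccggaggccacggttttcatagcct
Des, chr1:75360042-75360291, plus strand: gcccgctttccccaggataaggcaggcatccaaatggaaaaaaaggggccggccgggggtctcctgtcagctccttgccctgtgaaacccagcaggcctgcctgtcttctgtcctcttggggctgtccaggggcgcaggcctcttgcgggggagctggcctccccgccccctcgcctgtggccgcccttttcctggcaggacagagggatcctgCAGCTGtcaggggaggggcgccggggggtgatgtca
Chrng, chr1:87205561-87205810, plus strand: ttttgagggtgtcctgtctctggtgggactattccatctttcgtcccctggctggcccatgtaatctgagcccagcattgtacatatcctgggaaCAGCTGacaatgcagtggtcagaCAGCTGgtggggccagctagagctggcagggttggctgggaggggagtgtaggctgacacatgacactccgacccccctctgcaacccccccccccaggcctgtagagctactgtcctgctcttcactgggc
In Mylpf the motif began 51 bases before the start, in Tnni1 68, in Des 36, and Chrng held 2 copies at 155 and 132 bases. Tnni1 had a further listed start, and the motif began 158 bases before that one. Mylpf lay highest of the 4 genes in the Lbr knockout, at 196 FPKM, and Chrng lowest, at 3.47 FPKM, so that genes with the motif spanned a wide range of levels.

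Of the 232 genes higher in the Lbr knockout, 58 belong to the 9 muscle lists, which is 25%. The wild types separate those genes from the rest. Only 4 of the 58 had a wild-type difference in the direction of the call, whereas 138 of the other 174 did (79.3%). Over all genes 4871 of 11466 had a wild-type difference in that direction. Among all 232, the Lmna knockout lay at least 2-fold below both wild types in 29 genes, 23 of them from the muscle lists, and the Lbr knockout lay at least 2-fold above both in 29 genes, 7 of them from the muscle lists. Both held for 3 genes, Myh3, Myh8 and Tnnt2, and neither for 177.

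Outside muscle, some genes of the mesothelium, the cell layer that lines body cavities, stood apart in the Lbr-knockout column, though the list as a whole did not. Krt18, a keratin of simple epithelia, was at 12.8 FPKM in the Lbr knockout, 0.509 in the Lmna knockout and 0.219 and 0.251 in the wild types (difference 3.20). Upk3b, an uroplakin of mesothelial cells, was at 6.93 FPKM in the Lbr knockout and 0.109 in the Lmna knockout, and it was listed at 0 in both wild types. Wt1, a transcription factor of the mesothelium, was at 3.60 and 0.130 FPKM (wild types 0.359 and 0.0246), and Upk1b at 4.03 and 0.272 FPKM (wild types 0.201 and 0.0993). These 4 genes were near 0 in every column but that of the Lbr knockout. Of 13 mesothelial and epithelial genes compared, 5 were 2-fold higher in the Lbr knockout and 2 in the Lmna knockout. Over all genes these shares were 2.02% and 1.32%. The list's median was 0.09 (wild types -0.19), with 7 of the 13 differences above 0. It was -0.71 over the 6 genes whose mean was 5 FPKM or more. Krt18, Upk3b, Wt1 and Upk1b passed the mean filter only through the Lbr-knockout column, so the filter itself favoured calls in that direction. Of 17 further members with a mean below 1 FPKM and a value above 0 in at least 1 knockout column, 11 were higher in the Lbr knockout. Among all genes not compared that had such a value, 5076 of 7477 were higher there. The summed level of the 6 markers of this cell type was 29.0 FPKM in the Lbr knockout, 27.4 in the Lmna knockout and 6.17 and 18.1 in the wild types, with Cdh1 and Epcam at 0.209 FPKM or less throughout. Krt19, a keratin, went the other way, at 7.44 against 26.3 FPKM, as the wild types did at 5.45 and 17.3. Whether cells of this kind were present in a sample was not tested.

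**Figure D3:**
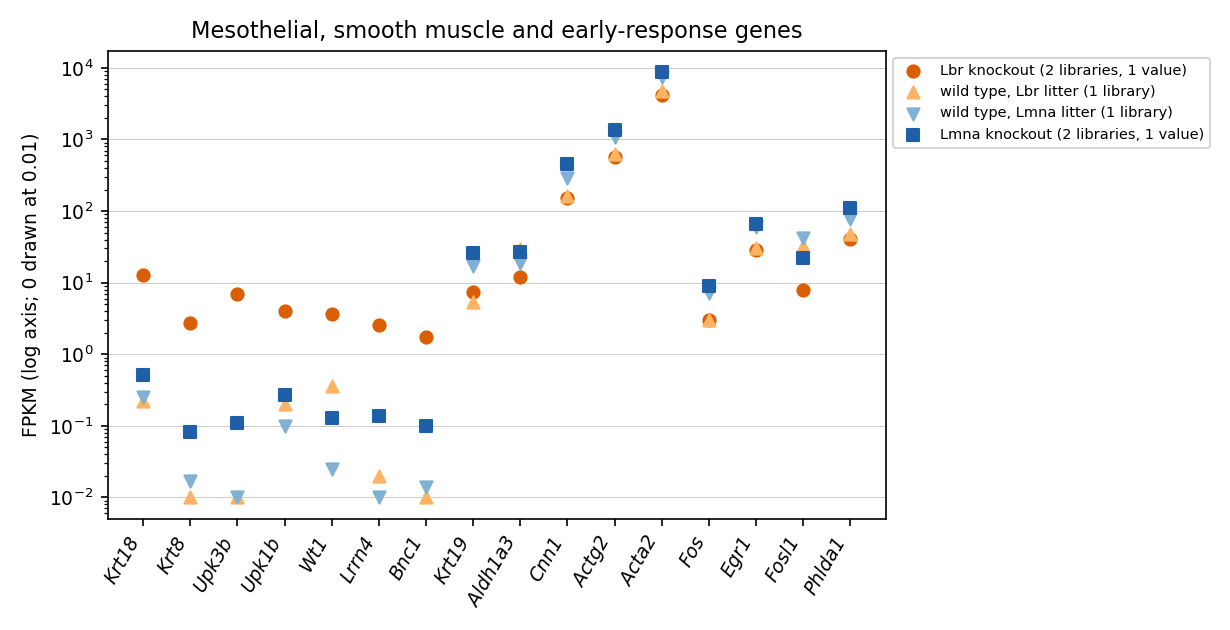
FPKM (log axis, values of 0 drawn at 0.01) of 16 mesothelial, smooth muscle and early-response genes in the 4 myoblast columns, 1 symbol per column. The first 7 genes, from Krt18 to Bnc1, stand apart in the Lbr-knockout column, whereas from Cnn1 to Egr1 both Lbr-litter columns lie below both Lmna-litter columns.

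A few further genes lay at least 2-fold above both wild types in the Lbr knockout. Ifi202b, an interferon-inducible gene of the Ifi200 family, was at 9.93 FPKM in the Lbr knockout and 0.0463 in the Lmna knockout, with 0.140 in the Lbr-litter wild type and 0 listed in the other (difference 3.38). It passed the mean filter only through the Lbr-knockout column. Its relatives split, with Ifi204 and Ifi203 higher in the Lbr knockout (2.25 and 1.34) and Ifi205 lower, at 0.261 against 2.51 FPKM with wild types at 4.40 and 2.39 (-1.48). These neighbours are similar in sequence, so that reads may have been divided between them in ways that gene values do not show. H19, an imprinted noncoding RNA, was at 155 and 56.9 FPKM (wild types 54.3 and 49.7, difference 1.43). Bmp4, a secreted growth factor, was at 12.6 and 4.78 FPKM (wild types 3.73 and 5.37, difference 1.24). Aldh1a2, which makes retinoic acid, was at 28.2 and 12.5 FPKM (wild types 4.11 and 6.09, difference 1.11), and there the Lmna knockout also lay above both wild types.

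Other genes stood apart low in the Lmna knockout. Thbs4, a matrix protein of tendon and muscle, was at 21.8 FPKM in the Lbr knockout and 4.25 in the Lmna knockout, with wild types at 19.4 and 27.6 (difference 2.12). Prg4, lubricin, which coats joint and tendon surfaces, was at 6.67 and 1.05 FPKM (wild types 9.0 and 8.30, difference 1.91). In both genes the Lbr knockout kept within 2-fold of the wild types on the log2(FPKM + 1) scale. Rpl26, a ribosomal protein gene, was at 7.68 and 1.88 FPKM with wild types at 22.0 and 18.8, and both knockouts lay below both wild types. Ribosomal protein genes have many near-identical pseudogenes, so this value is uncertain.

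Genes higher in the Lmna knockout were of another kind. Only 2 of the 151 were in the muscle lists, Fhl1 and Jph2, and 134 (88.7%) had a wild-type difference of the same sign. Over all genes the wild-type difference was above 0, the opposite sign, in 4871 of 11466. The Lmna knockout lay at least 2-fold above both wild types in 18 of them and the Lbr knockout at least 2-fold below both in 4, Cd59a, Fosl1 and Ifi205 among them, while 129 met neither. Cd59a, which protects cells from complement, was at 16 FPKM in the Lbr knockout and 55.9 in the Lmna knockout (wild types 39.4 and 60.1, difference -1.75). Kif1a, a kinesin motor, was at 4.01 and 15.2 FPKM (wild types 6.90 and 10.5, difference -1.69). Gjb2, a gap junction protein, was at 26.6 and 84.1 FPKM (wild types 38.5 and 49.3, difference -1.63). Pmp2, a lipid-binding protein of myelin, was at 2.02 and 10.7 FPKM (wild types 4.09 and 7.64, difference -1.95). Hspb1, a small heat shock protein, was at 66.2 and 184 FPKM (wild types 73.6 and 116, difference -1.46). Siglecg, Plac9, Olfm2 and Spint1 differed by -1.56, -1.44, -1.44 and -1.43, with wild-type differences of -0.89, -0.74, -0.22 and -0.99.

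Of 22 genes of smooth muscle and targets of SRF, the serum response factor, 5 were 2-fold higher in the Lmna knockout and 1, Des, in the Lbr knockout (median -0.60, wild types -0.48), and over all genes 1.32% were called in the first direction. Cnn1, calponin, was at 151 FPKM in the Lbr knockout and 449 in the Lmna knockout (wild types 165 and 287, difference -1.56). Actg2, enteric smooth muscle actin, was at 567 and 1361 FPKM (wild types 618 and 1077), and Acta2, vascular smooth muscle actin, at 4164 and 8757 FPKM (wild types 4783 and 7479). In these 3 genes both columns of the Lbr litter lay below both columns of the Lmna litter. Srf itself was at 13.4 and 27.6 FPKM (wild types 13.4 and 19.6, difference -0.99). The smooth muscle median was thus opposite in sign to the contractile median of 2.0, while both wild-type medians were below 0. With the wild-type difference subtracted, the smooth muscle median was -0.28.

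The AP-1 and immediate early genes, which answer within minutes to growth factors and stress, were 2-fold higher in the Lmna knockout in 10 of 29 and in the Lbr knockout in 0 (median -0.56). In the wild types the median was -0.45, with 3 called in the Lmna litter. Fos was at 3.02 and 8.87 FPKM (wild types 3.04 and 7.11), and Dusp1, a phosphatase, at 65.5 and 167 FPKM (wild types 75.4 and 152). For both genes the wild types repeated the knockouts almost column by column. Fosl1, an AP-1 subunit, was at 7.97 and 22.4 FPKM with both wild types higher, at 32.6 and 42.6 (difference -1.38). Phlda1, an early-response gene, was at 40.8 and 112 FPKM (wild types 47.7 and 77.6, difference -1.43).

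Histone and ribosomal protein genes were shifted in both pairs alike. Of 32 histone genes of the replication-dependent kind, 7 were 2-fold higher in the Lmna knockout and 0 in the Lbr knockout (median -0.85), and the wild types gave 7 and a median of -0.88, so that the list's median was 0.10 once the wild-type difference was subtracted. Hist2h2bb was apart from the rest, at 3.14 and 14.5 FPKM with wild types at 3.21 and 2.83 (difference -1.90). The histone genes are near-identical copies in part, so that single members are uncertain. Of 42 ribosomal protein genes the median was -0.45 in both pairs, and it was -0.10 under quantile normalization and -0.01 after subtraction. Genes of DNA replication, which accompany histone synthesis in S phase, had a median of -0.10 with 0 of 34 called, a sign that upper quartile scaling (0.08) and subtraction of the wild types (0.01) turned.

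Transcript length moved with these differences. For 10348 genes with a transcript length (90.4%), the length correlated with the knockout difference (rho 0.29 across genes) and with the wild-type difference (rho 0.33). Transcripts of up to 500 bases had a median of -0.28 in the knockouts and -0.35 in the wild types, and those above 6000 bases 0.17 in both. Genes higher in the Lmna knockout had a median length of 1285 bases, and those higher in the Lbr knockout 2340, or 2464 without the muscle lists. Of the shortest class 7.33% were 2-fold higher in the Lmna knockout, of the longest 0.353%. Short and long muscle genes were alike higher in the Lbr knockout: Mylpf, Tnnc2 and Mb have median lengths under 1000 bases, and Myh3 has 5994. Centred within bins of length, 209 of the 232 and 100 of the 151 genes were 2-fold apart again, and the contractile median was 2.01.

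**Figure D4:**
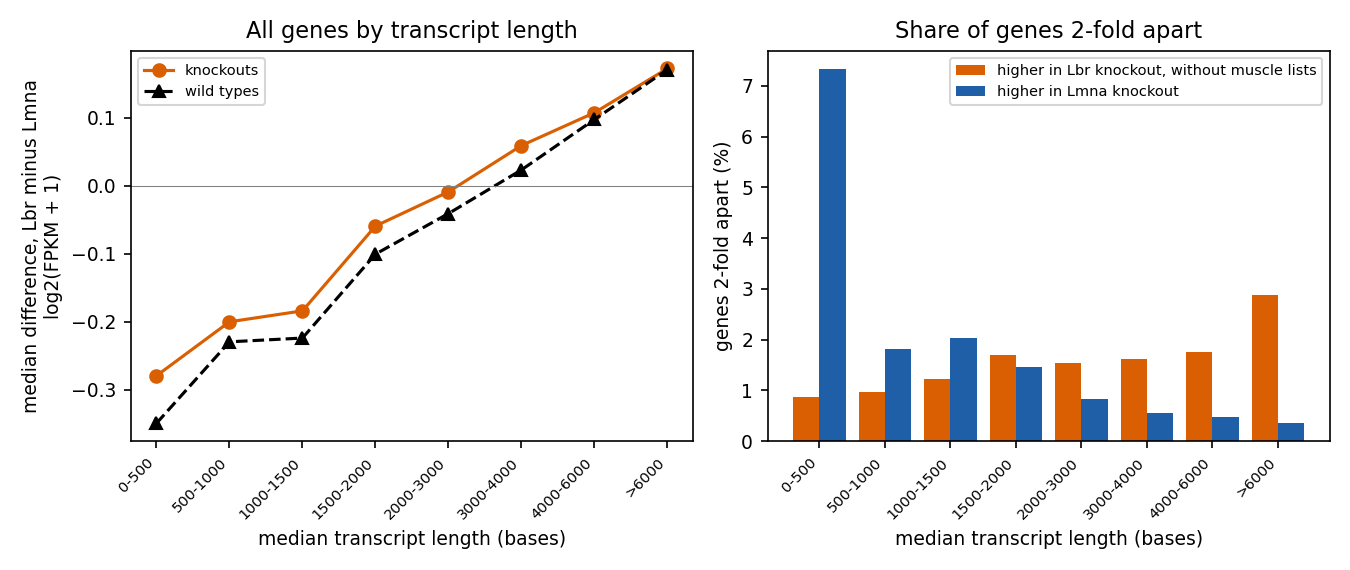
Left, median difference (Lbr minus Lmna, log2(FPKM + 1)) of genes in 8 classes of transcript length, for the knockouts and the wild types. Right, percent of genes 2-fold apart in the knockouts per class, in either direction; medians rise with length in both pairs, from -0.28 to 0.17 in the knockouts, and calls in the Lmna direction fall from 7.33% to 0.353%.

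Macrophage genes gave the reverse picture, with a wide gap between the wild types and little between the knockouts. Of 31 macrophage and leukocyte genes, 2 were 2-fold higher in the Lbr knockout and 0 in the Lmna knockout (median 0.28), whereas in the wild types 27 were 2-fold higher in the Lmna litter and 0 in the Lbr litter (median -1.60). The summed level of 6 markers was 1031 FPKM in the Lbr knockout, 1013 in the Lmna knockout, 349 in the Lbr-litter wild type and 1243 in the Lmna-litter wild type. Lyz2, lysozyme, made up most of it at 918, 929, 316 and 1131 FPKM in the same order. The knockouts were thus close to each other and to the Lmna-litter wild type, with the Lbr-litter wild type the low column. The 2 genes called were Fcgr2b, an Fc receptor (6.11 and 1.47 FPKM, wild types 1.30 and 1.33), and Msr1, a scavenger receptor (63.1 and 29.0 FPKM, wild types 14.5 and 38.0). Complement genes were alike, with 1 of 15 called in the knockouts, Cd59a, and a median of 0.20 against -0.92 in the wild types.

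In the knockouts 24 of the 31 macrophage genes were higher in the Lbr column, the direction of the muscle genes, and 5 of the 6 markers were, such as Itgam at 22.3 against 14.3 FPKM. Over all genes 5248 of 11466 were higher in the Lbr column. In the wild types macrophage and contractile genes both stood higher in the Lmna litter. The part of macrophages in the differences of other genes was not tested. Subtracting the wild-type difference would carry both gaps into the comparison, and the macrophage median then was 2.03 and the thick filament median 3.68.

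Sex-linked genes differed between columns, and the labels do not give sex. Xist, the RNA of the inactive X chromosome, was at 56.6 FPKM in the Lbr knockout and 22.1 in the Lmna knockout, against 0.00569 in the Lbr-litter and 6.67 in the Lmna-litter wild type. Eif2s3y, a Y-linked gene, was at 23.1 and 5.83 FPKM (wild types 22.8 and 10.1). Both knockout columns, and also the Lmna-litter wild type of 1 library, held Xist together with Y-linked RNA. The part of sex in the differences above was not tested and, with each column a single value, cannot be told apart from genotype.

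**Figure D5:**
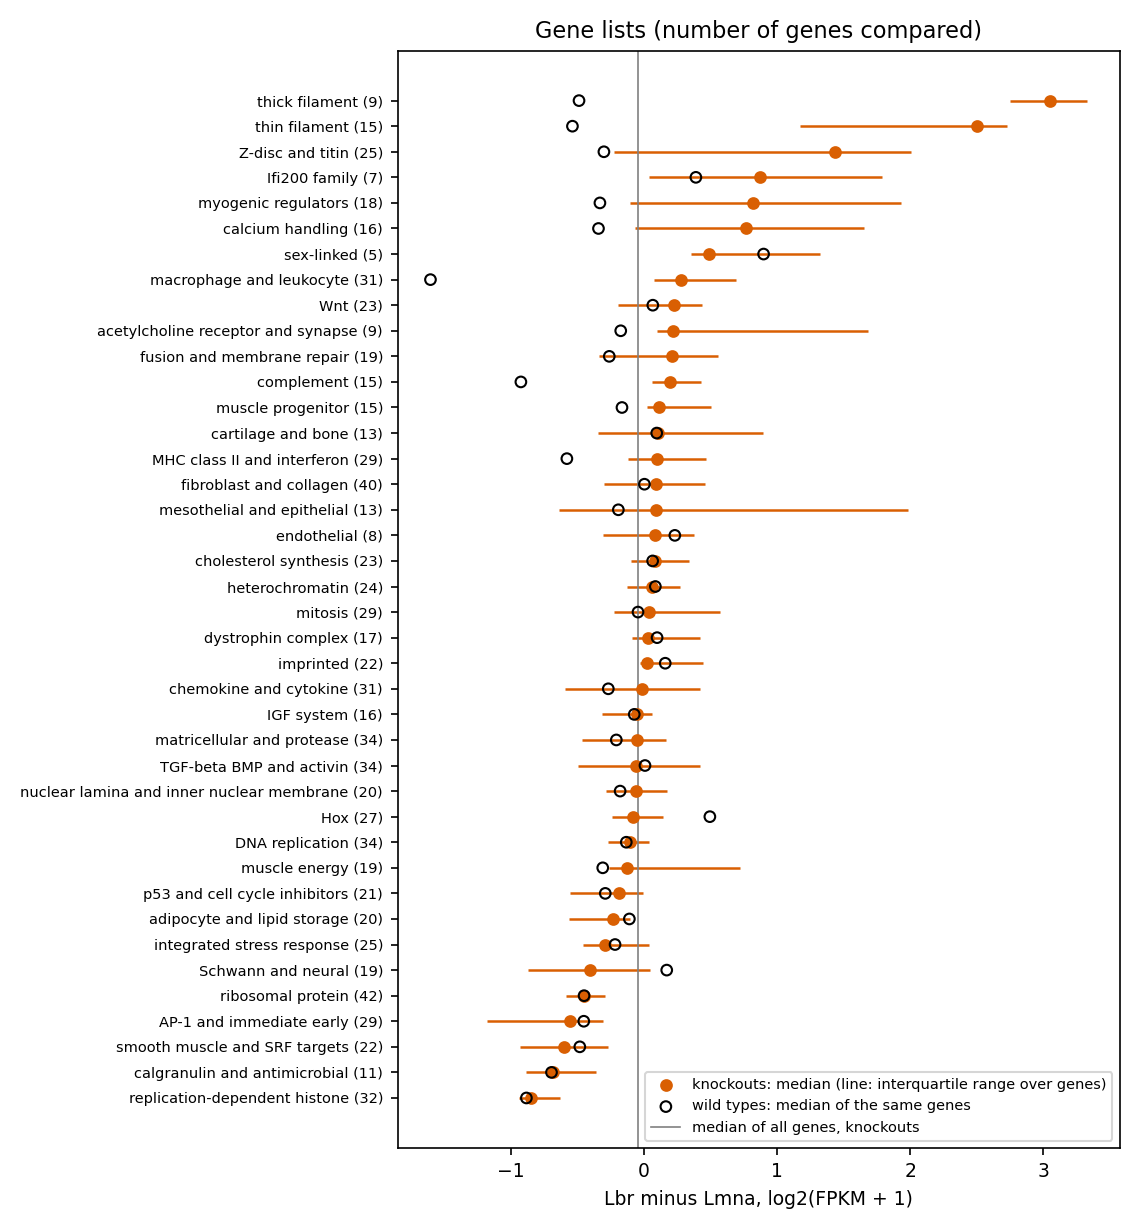
Median difference of 40 gene lists between the knockouts (filled, with the interquartile range over genes as a line) and between the wild types (open), Lbr minus Lmna on the log2(FPKM + 1) scale, ordered by the knockout median. The contractile lists stand at the right with wild types on the other side of 0, macrophage and complement genes show the wild types alone apart, and histone and ribosomal genes show both symbols together.

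Striated muscle tissue of the same genotypes was set beside the myoblasts, with a single column of 2 libraries for each knockout and another kit of the same maker. There 82 of 12069 genes were 2-fold higher in the Lbr knockout (0.679%) and 98 in the Lmna knockout (0.812%). Of the 232 genes higher in Lbr-knockout myoblasts, 203 were measured in muscle, and 91 of them had the same sign there. Over all genes 5712 of 12069 were higher in Lbr-knockout muscle. Of the 203, only 3 were 2-fold apart in the same direction, Actc1, Lmna and Gatm, and 6 in the other (Csrp3, Lmod2, Thbs4, Xist, Neat1 and Spp1). For contractile genes the muscle median was -0.03 over 76 genes, with 2 called higher in the Lbr knockout and 5 in the Lmna knockout. Myl1, at 61.3 against 3.43 FPKM in myoblasts, stood at 17287 against 15323 FPKM in muscle.

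Single genes showed how far the tissues parted. Csrp3 differed by 2.74 in myoblasts and by -2.38 in muscle, and Lmod2 by 2.50 and -1.13. Actc1 differed by 2.51 and 1.53, at 4741 FPKM in Lbr-knockout and 1642 in Lmna-knockout muscle. The targeted genes kept their direction, with Lmna at 2.45 in myoblasts and 1.43 in muscle and Lbr at -0.73 and -2.10. Of the 151 genes higher in Lmna-knockout myoblasts 114 were measured in muscle and 54 had the same sign. Over all genes 5712 of 12069 had the other sign in muscle. Of the 114, 4 were called in the same direction, among them Timp1, an inhibitor of matrix proteases (-1.01 and -2.29).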

How the data were processed

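The authors deposited FPKM, 1 value for each gene in each group. Per the submitters' processing notes the genome build was mm9; the aligner, the quantification tool and how 2 samples became 1 column were not given in the sources used here. Total RNA was extracted with TRIZOL and column-purified, and the myoblast libraries were made with the NuGEN Ovation kit, per the labels' protocols. Of 7 value columns, 4 were myoblast columns, matched to groups by name, with 0 left unmatched.

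Differences were taken on log2(FPKM + 1), for genes whose mean was 1 FPKM or more and whose values in both compared columns were above 0, with a call at 1 (2-fold) and no test. The calculation was tested on simulated data. The 40 gene lists (1087 genes, 16 list entries not matched) and the members were chosen with earlier results of these data known. Named by rule were the 12 largest differences in each direction among called genes with wild types less than 2-fold apart and a mean of at least 2 FPKM, leaving out predicted genes, small RNAs and pseudogenes, then Lbr, Lmna, Lmnb1, Lmnb2 and Emd, and the 6 members of a described list that differed most. Named after their values were seen were Actc1, Acta1, Tpm1, Tnnt3, Gnas, Myod1, Myom1, Fhl1, Jph2, Srf, Xirp2, Ttn, Nrap, Prg4, Thbs4, Bmp4, Rpl26, Neat1, Ranbp2, Rock1, Lyz2, Col1a1 and the genes listed as called in muscle. Lists overlap. GENCODE M21 and RefSeq promoters, both of GRCm38, served for transcript lengths and upstream sequence, and no mm9 coordinate was used. Python 3.11.15, pandas 2.3.3, numpy 2.4.6 and scipy 1.17.1 were used. Alternatives were other pseudocounts, filters, scalings and folds, subtraction of the wild-type difference and, added after seeing the data, centring within length bins. Not every list member that meets these rules is printed, and 1 gene is not reported here.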

Additional observations from a re-analysis of the deposited data

Results flagged for a closer look

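The thick filament genes were flagged because the knockouts moved in opposite directions from the wild types of their own litters, the Lbr knockout upward (list median 1.56) and the Lmna knockout downward (-2.34), and the difference of these effects had a median of 3.68 over the 9 genes compared. Thin filament genes were flagged for the same reason, with medians of 1.32 and -1.56 and a difference of 2.89 over 15 genes. Neither difference was tested, as each knockout is a single value. The wild types of these lists differed by -0.49 and -0.54, which the litter-matched values include.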

How the results depend on the processing

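Counts of genes 2-fold apart depended on the pseudocount and the fold. The genes higher in the Lbr knockout, higher in the Lmna knockout, higher in the Lbr-litter wild type and higher in the Lmna-litter wild type numbered 424, 246, 198 and 422 with a pseudocount of 0.1 and 69, 65, 17 and 76 with 5. They numbered 1005, 868, 656 and 960 at 1.5-fold and 77, 21, 6 and 63 at 3-fold. A mean of at least 5 FPKM left 124 genes higher in the Lbr knockout and 143 higher in the Lmna-litter wild type. Upper quartile scaling moved the median of all genes by 0.17 and gave 406 and 85 genes in the knockouts; subtracting the wild-type difference gave 370 and 54, among which were 114 of the 232 and 24 of the 151 reported genes, while 8 and 14 of them had the opposite sign. Over all settings the thick filament median ranged from 1.26 to 4.11, the thin filament median from 1.16 to 2.89, the Z-disc median from 0.00 to 2.09 and the histone median from -0.90 to 0.10. No paired analysis was possible because each knockout is a single column, and for the same reason leaving out replicates was not run. The cause of these shifts was not tested. Depth limits low genes: 1 FPKM of a 2 kb transcript stood for about 23.5 fragments in the Lbr-knockout column.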

Other observations

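Several secreted regulators differed in the knockouts and, in the same direction, in the wild types. Sfrp2, a secreted Wnt modulator, was at 15.0 FPKM in the Lbr knockout and 1.84 in the Lmna knockout (difference 2.50), with wild types at 5.63 and 1.36, and Rspo3, a Wnt agonist, was at 5.76 and 2.27 FPKM with wild types at 6.97 and 3.42. Grem1, a BMP antagonist, was at 43.9 and 16.3 FPKM with wild types at 40.8 and 15.7, so that both Lbr-litter columns lay above both Lmna-litter columns. Gdf15, a stress-induced cytokine, was at 3.66 and 20.3 FPKM with wild types at 2.62 and 11.8. Among matrix genes, Ogn, osteoglycin, was at 30.2 and 6.67 FPKM (wild types 16.3 and 8.78, difference 2.02), and Col2a1, the cartilage collagen, at 9.01 and 1.69 FPKM (wild types 3.69 and 6.36, difference 1.90), where the wild types differed the other way. Of 40 fibroblast and collagen genes 3 were 2-fold higher in the Lbr knockout and 0 in the Lmna knockout, at a median of 0.09 (-0.03 with a mean of at least 5 FPKM).

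Of 27 Hox genes 2 were called, beside 3.34% over all genes. Hoxc13 was at 3.27 and 15.0 FPKM and Hoxc12 at 0.916 and 4.16, and the wild types differed likewise (3.42 and 14.8, then 0.494 and 5.06). Long genes of mitosis led the 3 of 29 called there: Cenpf was at 19.8 and 7.16 FPKM, Cenpe at 46.9 and 18.1 and Mki67 at 122 and 52.5, while the list's median was 0.04 and the wild types differed by 0.93, 1.09 and 0.92. Schwann and neural genes had a median of -0.40 with wild types at 0.17 and 6 of 19 differences above 0, and the 2 called, both higher in the Lmna knockout, were Tubb3, a neuronal tubulin (18.4 and 40.7 FPKM, wild types 23.7 and 31.6), and Sox10. Sox10, a neural crest factor, was at 5.46 and 12.7 FPKM (wild types 10.9 and 7.85). Of 20 fat cell and lipid storage genes 4 had a difference above 0 (median -0.23, wild types -0.11). Pparg was at 5.63 and 10.3 FPKM and Fabp4 at 10.5 and 20.5 FPKM, and neither was 2-fold apart. Over all genes 5248 of 11466 differences were above 0. Heterochromatin genes, which encode proteins of the compartment that Lbr and lamin A/C tether, had a median of 0.06 (wild types 0.09). Of the 24 compared, 0 were called, beside 3.34% over all genes.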
